A study of Mus musculus with 2 samples.

Results

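The genes described here encode the proteins that form a blood clot, limit it and dissolve it. The 37 genes were taken from a list of coagulation factors, their inhibitors, the fibrinolytic enzymes and the proteins that modify or export clotting factors, out of 19938 genes measured. A gene was represented by the array probe that carried its symbol alone and had the highest mean of both arrays. Of the 37 genes, 35 had such a probe, and 32 of these passed a filter on level, set at 5.44 on the log2 scale. F13a1, Plat and Plau lay below the filter. Klkb1 was matched by a probe shared with another gene, so no value is given for it, and Cpb2 was not analysed here.

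Liver RNA was hybridised to 2 Affymetrix arrays. They held a pool from male mice labelled FHL2-/-, knockouts of the gene for the LIM-domain protein FHL2, and a pool from male wild-type mice. Both were on a hybrid Black Swiss/129-SV/J background, were 10 to 11 weeks old and received no treatment that the labels name, and RNA of the left lobe of 3 mice was combined in each pool. The labels name no Cre driver or conditional allele. Pooling removes the spread between animals, and whether littermates were used is not given in the sources used here.

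Each group is 1 array, so no test between the groups is possible, no p-value is given, and every difference below is between these pools only. Differences are log2 values of the FHL2-/- labelled pool minus the wild-type pool, without a replicate check. The nearest thing to a repeat is a gene read by more than 1 probe. Over 660 such genes the SD of the difference between probes was 0.143 on the log2 scale, a figure that holds the error of probes but not that of mice or of array runs. Fhl2 itself read 5.33 in the FHL2-/- labelled pool and 5.30 in the wild-type pool with 1 probe, both under the filter. Since the deleted exons are not named, this probe does not check the genotype. The array medians were 5.71 in the FHL2-/- labelled pool and 5.76 in the wild-type pool, and the median difference of all 11924 genes past the filter was 0.04. Hepatocyte markers were bright, from 11.8 to 13.7 over 11 genes in the FHL2-/- labelled pool and from 11.7 to 13.7 in the wild-type pool.

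Clotting runs as a cascade of proteases. Tissue factor, exposed when a vessel is damaged, activates factor VII, the signal is amplified through factors IX, VIII, X and V to thrombin, and thrombin cuts fibrinogen into fibrin, which factor XIII cross-links. Antithrombin, the protein C system and tissue factor pathway inhibitor restrain the cascade, and plasmin, made from plasminogen, dissolves the clot. Hepatocytes make most of these plasma proteins, endothelium makes von Willebrand factor, factor VIII, thrombomodulin and tissue factor pathway inhibitor, and several factors need vitamin K for the carboxylation that lets them bind calcium and membranes.

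Across the 32 genes the pools lay close together. The median difference was 0.07, against 0.04 for all genes, and 21 genes were above 0 while 11 were below, near the 59.5% of all genes above 0. At 1.5-fold 0 genes were higher and 0 were lower, against 0.621% and 0.335% of all genes. At 1.2-fold 2 genes were higher, F3 and Proz, and 1 was lower, Tfpi, against 8.66% and 6.16% of all genes. These 2 of 32 and 1 of 32 are under the shares over all levels and are no result about the set. At 9 or above on the log2 scale lay 26 of the 32 genes. Of these, 1 was at least 1.2-fold higher and 0 lower, near the 3.76% and 2.68% of all 2049 genes in that range. F3, Proz, Pros1, Tfpi and F11 were the 5 of 32 genes whose difference exceeded the SD between probes, against 40.3% of all genes. The other 27 lay within it. That share depends on level, since 73.4% of all genes at 9 or above lay within the SD but 52.0% between the filter and 7. The count of 5 past this SD depends on the scaling. With the arrays set to a common median 12 of the 32 exceeded it, against 45.5% of all genes, since F5, F7, F9, F10, Serpind1, Serpina10, Serpinf2 and Habp2 joined them and F11 no longer did. With the trend on level removed 7 did, against 37.2% of all genes, as Ggcx and Mcfd2 joined the 5. Below, within or beyond this SD refers to the values as deposited.

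**Figure D1:**
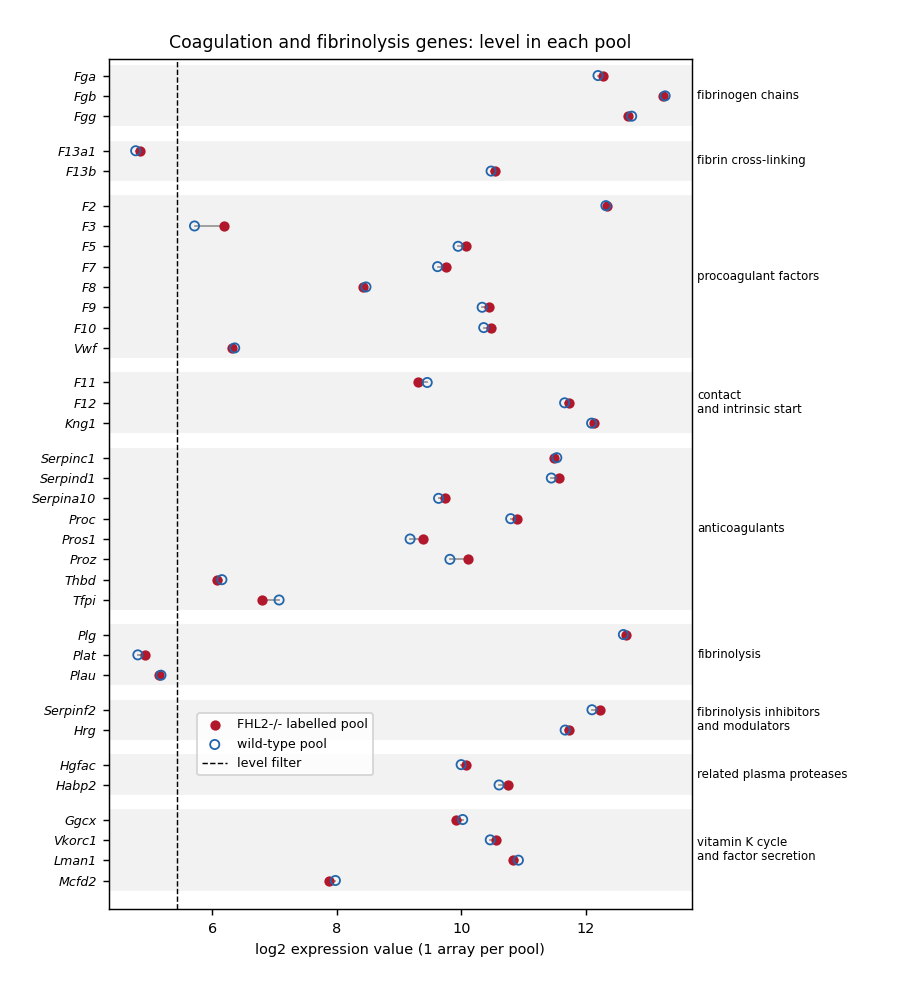
Log2 expression value of each gene in the FHL2-/- labelled pool (filled) and in the wild-type pool (open), 1 array per pool, grouped by role, with the level filter at 5.44 as a dashed line. The 2 points of a gene nearly coincide for most genes, and the widest gap is that of F3, at 6.19 in the FHL2-/- labelled pool and 5.71 in the wild-type pool.

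The fibrinogen genes encode the 3 chains of the protein that becomes the clot. Fga, the alpha chain, was at 12.28 in the FHL2-/- labelled pool and 12.20 in the wild-type pool. Fgb, the beta chain, was at 13.24 in the FHL2-/- labelled pool and 13.28 in the wild-type pool. Fgg, the gamma chain, was at 12.68 in the FHL2-/- labelled pool and 12.74 in the wild-type pool. The differences were 0.08 for Fga, -0.03 for Fgb and -0.06 for Fgg, all within the SD between probes, and the sign of Fgb turned to 0.0073 once the arrays had been set to 1 common median. Fga was the 1 gene with 2 probes. Its dimmer probe read 10.68 in the FHL2-/- labelled pool and 10.54 in the wild-type pool, a difference of 0.15, so both probes put Fga slightly above 0.

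The 3 fibrinogen genes follow each other on chromosome 3, and their promoters are shown because fibrinogen is an acute phase protein whose genes are textbook targets of HNF1, C/EBP and interleukin-6 signalling. RefSeq's 250 bases before the gene start (GRCm38.p6) are printed 5′ to 3′ in the direction of transcription, for Fgg at chr3:83007474-83007723 on the plus strand, Fga at chr3:83025903-83026152 on the plus strand and Fgb at chr3:83049864-83050113 on the minus strand. Capitals mark matches on either strand to GTTAAT for HNF1, TTGCNNAA for C/EBP, CTGGGAA for the type II interleukin-6 response element or TATAAA for a TATA box.
Fgg: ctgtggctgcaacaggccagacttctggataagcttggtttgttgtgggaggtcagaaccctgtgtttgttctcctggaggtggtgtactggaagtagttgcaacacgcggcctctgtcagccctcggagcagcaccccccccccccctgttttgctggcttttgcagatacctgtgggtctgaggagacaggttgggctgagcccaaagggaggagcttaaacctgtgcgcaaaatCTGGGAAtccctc
Fga: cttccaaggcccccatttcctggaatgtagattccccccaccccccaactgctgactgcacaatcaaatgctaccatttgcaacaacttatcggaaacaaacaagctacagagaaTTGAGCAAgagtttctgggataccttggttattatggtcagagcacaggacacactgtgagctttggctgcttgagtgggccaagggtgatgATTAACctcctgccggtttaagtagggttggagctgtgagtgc
Fgb: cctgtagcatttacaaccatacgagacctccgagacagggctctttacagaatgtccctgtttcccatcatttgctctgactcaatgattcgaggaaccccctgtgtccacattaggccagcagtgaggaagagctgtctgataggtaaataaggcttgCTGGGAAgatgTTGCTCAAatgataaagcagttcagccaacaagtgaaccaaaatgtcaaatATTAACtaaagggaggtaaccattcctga
Fgg held 1 match to CTGGGAA, which began 13 bases before the gene start. Fga held 1 match to the HNF1 motif at 43 bases and 1 to the C/EBP motif at 135 bases. Fgb held 1 match each to the HNF1 motif at 29 bases, the C/EBP motif at 80 bases and CTGGGAA at 91 bases, and none of the matches overlapped. Of 32851 promoter windows in the mouse table, 6.43% held GTTAAT, 9.56% TTGCNNAA, 9.10% CTGGGAA and 12.4% TATAAA. Of 28 genes of the set with at least 1 window, 6 held the HNF1 motif, 8 the C/EBP motif, 4 CTGGGAA and 2 TATAAA. These counts are of genes with a match in any of their windows, while the percentages are of single windows. The counts and percentages are therefore not directly comparable. A match describes letters in this window and does not show binding.

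Fgl1, a fibrinogen-like protein secreted by hepatocytes and known to be induced in the acute phase, was set beside fibrinogen. It was at 11.90 in the FHL2-/- labelled pool and 11.43 in the wild-type pool, which is 1.38-fold higher, while no fibrinogen chain differed by more than 0.084 in either direction at its brightest probe. Over 18 acute phase genes past the filter the median difference was 0.21. Of these, 7 were at least 1.2-fold higher and 0 at least 1.2-fold lower, against 8.66% and 6.16% of all genes. The leading acute phase genes were Lcn2, a siderophore-binding protein, at 3.12-fold, Saa2, a serum amyloid A, at 2.25-fold, and Orm3, an orosomucoid, at 1.91-fold higher. Orm3 read 6.34 in the FHL2-/- labelled pool and 5.41, under the filter, in the wild-type pool, so its fold may rest on background. Hp, Itih4 and Hpx, bright acute phase genes named after their values were seen, read 12.55, 12.53 and 13.20 in the FHL2-/- labelled pool. Their differences were 0.09, 0.09 and 0.01, as small as those of the fibrinogen chains. The difference between the acute phase and clotting groups was not tested, since each rests on the same 2 arrays.

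Fibrin cross-linking needs factor XIII. F13b, its carrier subunit made by hepatocytes, was at 10.53 in the FHL2-/- labelled pool and 10.48 in the wild-type pool, a difference of 0.06. F13a1, its catalytic subunit made by macrophages and megakaryocytes, was dim, at 4.83 in the FHL2-/- labelled pool and 4.77 in the wild-type pool, below the level filter in both. Macrophage markers were lower in the FHL2-/- labelled pool, with a median difference of -0.19 over 12 genes. Of the 12, 11 were below 0 and C1qc was at 0.22, while 59.5% of all genes were above 0. With the arrays at a common median 9 of the 12 were below 0, with a median of -0.15, while 69.2% of all genes were above 0. The summed signal of these markers on the linear scale was 0.881 of that in the wild-type pool. Adgre1 at -0.40, Marco at -0.38 and Lyz2 at -0.36 led them. In bulk RNA fewer cells and less RNA per cell cannot be told apart, and whether this bears on F13a1 was not tested.

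Among the procoagulant factors F3 had the largest difference. F3, tissue factor, the membrane protein that starts the cascade, was at 6.19 in the FHL2-/- labelled pool and 5.71 in the wild-type pool. This was 1.39-fold higher, the largest difference of the 32 genes, and 98.7% of all genes had a lower difference. Both values were dim. Between the level filter and 7 on the log2 scale, 10.6% of 4930 genes were at least 1.2-fold higher and 10.6% at least 1.2-fold lower, against 3.76% and 2.68% of 2049 genes at 9 or above. The value of F3 therefore sits where differences of its kind are more frequent.

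The promoter of F3 is shown because F3 differed most. It lies at chr3:121723287-121723536 on the plus strand of GRCm38.p6 and held 0 matches to the 4 motifs, so no letters are in capitals.
F3: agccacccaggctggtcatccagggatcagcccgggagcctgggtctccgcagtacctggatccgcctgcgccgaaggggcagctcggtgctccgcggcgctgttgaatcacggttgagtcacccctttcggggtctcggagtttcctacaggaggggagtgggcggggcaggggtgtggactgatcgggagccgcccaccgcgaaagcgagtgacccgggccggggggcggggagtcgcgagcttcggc
G and C made up 70% of this window, against a median of 52.4% over all windows.

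Thrombin and the vitamin K dependent factors of hepatocytes differed less. F2, prothrombin, was at 12.34 in the FHL2-/- labelled pool and 12.32 in the wild-type pool. F7, the partner of tissue factor, was at 9.75 in the FHL2-/- labelled pool and 9.62 in the wild-type pool. F9, the hemophilia B factor, was at 10.44 in the FHL2-/- labelled pool and 10.33 in the wild-type pool. In each the FHL2-/- labelled pool was the higher of the pair, by at most 0.13.

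F10, whose active form makes thrombin, was at 10.47 in the FHL2-/- labelled pool and 10.36 in the wild-type pool. F5, the cofactor of factor Xa, was at 10.08 in the FHL2-/- labelled pool and 9.95 in the wild-type pool. F8, the hemophilia A factor, which endothelium makes, was at 8.42 in the FHL2-/- labelled pool and 8.47 in the wild-type pool. F5 and F10 were higher by 0.13 and 0.11, and F8 was lower by 0.05, all within the SD between probes. Vwf, the large adhesive protein that carries factor VIII in plasma, was at 6.31 in the FHL2-/- labelled pool and 6.36 in the wild-type pool, a difference of -0.05.

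The contact and intrinsic proteins were represented by F11, F12 and Kng1. F12, which starts the contact pathway on charged surfaces, was at 11.74 in the FHL2-/- labelled pool and 11.66 in the wild-type pool. Kng1, the kininogen that carries prekallikrein and factor XI, was at 12.13 in the FHL2-/- labelled pool and 12.09 in the wild-type pool. F11, the factor that activates factor IX, was at 9.30 in the FHL2-/- labelled pool and 9.45 in the wild-type pool. F11 alone of these was lower, by a difference of -0.15, just beyond the SD between probes, and at a common median it was at -0.11, within it. Kng2, named after its value was seen, a close copy of the kininogen gene next to Kng1, read 10.84 in the FHL2-/- labelled pool and 10.60 in the wild-type pool, and probes of such copies can share transcripts, so both values are uncertain.

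**Figure D2:**
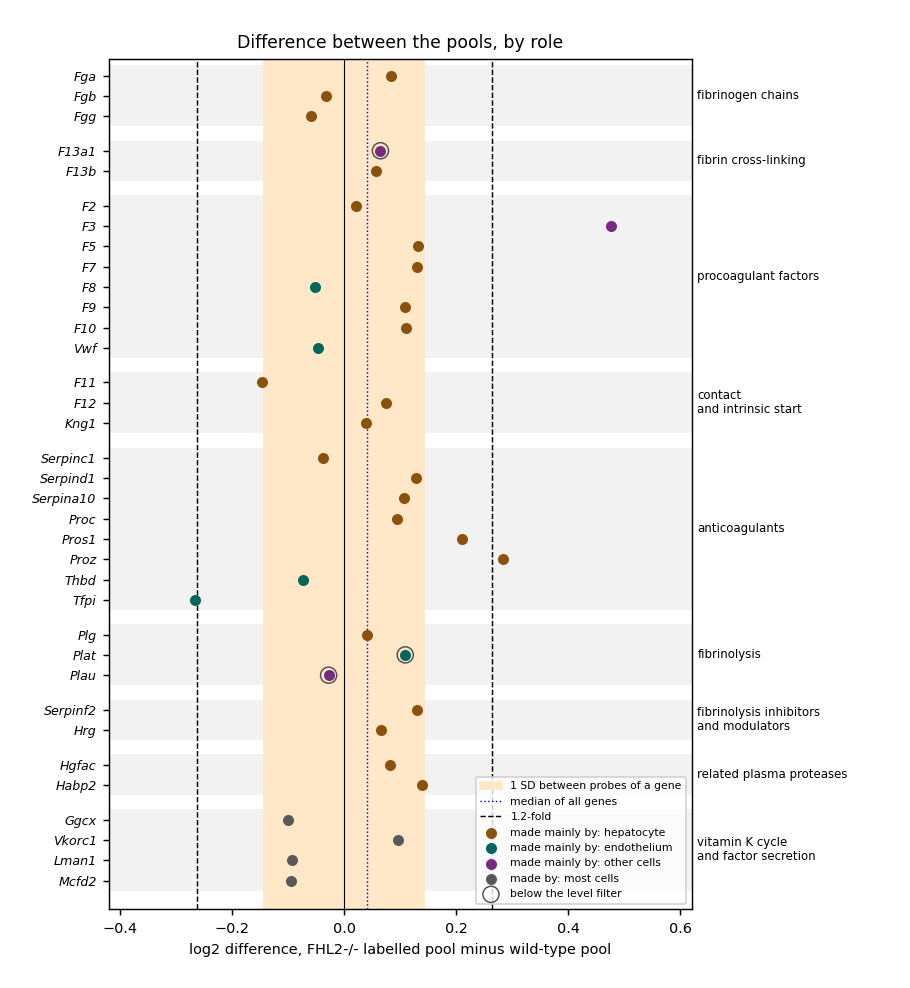
Log2 difference of each gene, FHL2-/- labelled pool minus wild-type pool, grouped by role and coloured by the main source of the protein. The shaded band is 1 SD between probes of a gene, 0.143, the dashed lines mark 1.2-fold, and circled points lie below the level filter. F3 at 0.48 and Proz at 0.28 lie right of the band beyond 1.2-fold, Pros1 at 0.21 lies right of the band, and Tfpi at -0.27 and F11 at -0.15 lie left of it.

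The anticoagulants held values in both directions. Proz, protein Z, a vitamin K dependent cofactor of the protease inhibitor that blocks factor Xa, was at 10.10 in the FHL2-/- labelled pool and 9.82 in the wild-type pool. It was 1.22-fold higher, a difference of 0.28, which was 0.24 after the trend on level was removed and then lay under 1.2-fold. Serpina10, the inhibitor that protein Z assists, was at 9.74 in the FHL2-/- labelled pool and 9.63 in the wild-type pool. Pros1, protein S, the cofactor of activated protein C, was at 9.39 in the FHL2-/- labelled pool and 9.18 in the wild-type pool. Pros1 was 1.16-fold higher, next after F3 and Proz among the 32 genes.

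Proz follows F7 and F10 directly on chromosome 8, and their promoters are shown because all 3 neighbours were higher in the FHL2-/- labelled pool. The differences were 0.13 for F7, 0.11 for F10 and 0.28 for Proz, and those of F7 and F10 lay within the SD between probes. Of all genes at 9 or above on the log2 scale 63.9% were above 0, so the shared direction of these 3 is no result about the locus. The windows are F7 at chr8:13025784-13026033, F10 at chr8:13037058-13037307 and Proz at chr8:13060658-13060907, all on the plus strand of GRCm38.p6, with the same marking of motifs.
F7: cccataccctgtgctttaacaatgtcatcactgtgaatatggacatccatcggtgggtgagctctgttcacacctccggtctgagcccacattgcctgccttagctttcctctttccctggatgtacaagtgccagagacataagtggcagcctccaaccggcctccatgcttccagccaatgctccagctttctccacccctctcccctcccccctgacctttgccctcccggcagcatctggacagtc
F10: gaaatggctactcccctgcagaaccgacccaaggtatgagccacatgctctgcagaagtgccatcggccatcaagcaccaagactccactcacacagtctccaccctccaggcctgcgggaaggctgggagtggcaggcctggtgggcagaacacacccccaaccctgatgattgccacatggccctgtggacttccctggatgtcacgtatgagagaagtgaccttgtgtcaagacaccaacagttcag
Proz: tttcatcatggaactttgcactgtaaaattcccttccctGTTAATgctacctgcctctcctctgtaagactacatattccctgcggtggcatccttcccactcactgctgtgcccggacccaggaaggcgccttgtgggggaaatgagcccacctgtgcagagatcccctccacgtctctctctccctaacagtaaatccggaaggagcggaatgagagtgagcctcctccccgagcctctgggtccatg
F7 and F10 held 0 matches to the 4 motifs, and Proz held 1 match to GTTAAT that began 211 bases before the gene start. F11, also on chromosome 8 but farther along, was lower, at -0.15. F13b, Serpinc1 and F5 share chromosome 1 with Fhl2 and lie 583, 677 and 713 protein-coding genes away from it.

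Proc, protein C, which inactivates factors V and VIII once thrombin activates it, was at 10.89 in the FHL2-/- labelled pool and 10.79 in the wild-type pool. Serpinc1, antithrombin, was at 11.50 in the FHL2-/- labelled pool and 11.53 in the wild-type pool. Serpind1, heparin cofactor II, which inhibits thrombin, was at 11.58 in the FHL2-/- labelled pool and 11.45 in the wild-type pool. The differences were 0.09 for Proc, -0.04 for Serpinc1 and 0.13 for Serpind1, all within the SD between probes, and that of Serpinc1 turned to 0.0029 with the arrays at a common median.

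The anticoagulants of the vessel wall lay on the lower side. Tfpi, tissue factor pathway inhibitor, which blocks factor Xa and the tissue factor complex, was at 6.805 in the FHL2-/- labelled pool and 7.07 in the wild-type pool. It was just past 1.2-fold lower, and its difference of -0.27 became -0.23, under 1.2-fold, with the arrays at a common median. Thbd, thrombomodulin, the endothelial receptor that turns thrombin towards protein C, was at 6.08 in the FHL2-/- labelled pool and 6.15 in the wild-type pool. F3 and its inhibitor Tfpi thus had the highest and the lowest difference of the 32 genes. Both were measured with 1 probe each and had a mean below 7 on the log2 scale, where differences past 1.2-fold are most frequent.

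In a grouping by cell of origin, the main source of each protein was assigned from textbook knowledge after the values were seen. Of 23 measured genes made mainly by hepatocytes, 19 were above 0, with a median of 0.08. All 23 lay at 9 or above on the log2 scale, where 63.9% of all genes were above 0. The 4 endothelial genes past the filter, F8, Vwf, Thbd and Tfpi, were all below 0, between -0.05 and -0.27, but F8 and Vwf came to only -0.01 and -0.0062 at a common median. Plat, the fifth endothelial gene, was at 0.11 but below the level filter. Of 17 endothelial marker genes 14 were above 0, and their median was 0.13, which became 11 of 17 and 0.07 with the trend on level removed. Of all genes 59.5% were above 0 as deposited and 50.6% with the trend removed. Their summed linear signal was 1.07 times that of the wild-type pool, led by Bmp2 at 0.32, Emcn at 0.23 and Kdr at 0.20, and whether the number of endothelial cells bears on the 4 genes was not tested. Hepatocyte markers had a median of 0.0051, with 6 of 11 above 0, and all 11 lay between -0.07 and 0.08, led by Apoc3 at 0.08, Ttr at -0.07 and Cps1 at 0.07.

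Fibrinolysis was represented by Plg, plasminogen, the precursor of plasmin, at 12.65 in the FHL2-/- labelled pool and 12.61 in the wild-type pool. Its activators were dim. Plat, tissue plasminogen activator, was at 4.91 in the FHL2-/- labelled pool and 4.80 in the wild-type pool. Plau, urokinase, was at 5.15 in the FHL2-/- labelled pool and 5.17 in the wild-type pool. Both activators lay below the level filter in both pools, so their differences of 0.11 and -0.03 rest on values that may be background, and that of Plau turned to 0.01 with the arrays at a common median.

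Serpinf2, the inhibitor of plasmin, was at 12.23 in the FHL2-/- labelled pool and 12.10 in the wild-type pool, a difference of 0.13. Hrg, histidine-rich glycoprotein, which binds plasminogen and heparin, was at 11.73 in the FHL2-/- labelled pool and 11.67 in the wild-type pool. Among related plasma proteases, Habp2, which can activate factor VII, was at 10.75 in the FHL2-/- labelled pool and 10.61 in the wild-type pool. Hgfac, which activates hepatocyte growth factor, was at 10.08 in the FHL2-/- labelled pool and 10.00 in the wild-type pool. All 4 were higher in the FHL2-/- labelled pool, by 0.07 to 0.14, within the SD between probes.

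The genes of the vitamin K dependent proteins were all above 0. The 7 genes F2, F7, F9, F10, Proc, Pros1 and Proz, whose proteins share the carboxylated domain, had differences from 0.02 to 0.28 and a median of 0.11. After removal of the trend on level their median was 0.07 and F2 was at 0.00075, which is close to 0. Among all genes at 9 or above on the log2 scale, 63.9% were above 0 and the median was 0.04. Of the 7 differences, 5 lay within the SD between probes and those of Proz and Pros1 lay beyond it, while at a common median F7, F9 and F10 lay beyond it too.

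The enzymes that serve these proteins lay on both sides of 0. Ggcx, the carboxylase itself, was at 9.92 in the FHL2-/- labelled pool and 10.02 in the wild-type pool. Vkorc1, the reductase that recycles vitamin K and the target of warfarin, was at 10.56 in the FHL2-/- labelled pool and 10.47 in the wild-type pool. The differences were -0.10 for Ggcx and 0.10 for Vkorc1. Nqo1, a quinone reductase that can reduce vitamin K and a target of the oxidative stress factor NRF2, was at 6.31 in the FHL2-/- labelled pool and 5.87 in the wild-type pool, 1.35-fold higher. It was read by 1 probe, and both values lay below 7 on the log2 scale, where differences past 1.2-fold are most frequent.

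Lman1 and Mcfd2 form the receptor that carries factors V and VIII out of the endoplasmic reticulum, and loss of either causes combined deficiency of both factors in humans. Lman1 was at 10.82 in the FHL2-/- labelled pool and 10.92 in the wild-type pool. Mcfd2 was at 7.88 in the FHL2-/- labelled pool and 7.98 in the wild-type pool. The differences were -0.09 and -0.10, so both subunits were lower by nearly the same amount, within the SD between probes. Their cargo genes lay on either side, F5 at 0.13 and F8 at -0.05.

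**Figure D3:**
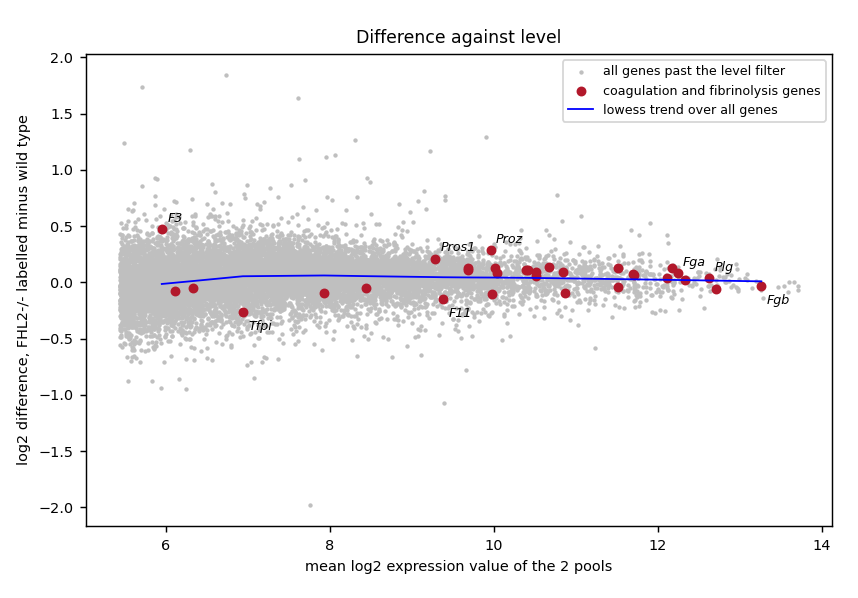
Log2 difference, FHL2-/- labelled pool minus wild-type pool, against the mean log2 expression value of both pools, for 11924 genes past the level filter (grey) and the 32 clotting genes past it (red), with the lowess trend over all genes as a line. Of the red points, 26 lie at 9 or above, where the grey cloud is narrow, and F3 and Tfpi lie below 7, where it is wide.

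The genes' levels placed most of them where these arrays vary least. At 9 or above on the log2 scale lay 26 of the 32 genes, 20 of them above 0, with a median difference of 0.08 against 0.04 for the 2049 genes in that range. Of those 26, 1 was at least 1.2-fold higher and 0 were at least 1.2-fold lower, near the 3.76% and 2.68% of all genes in that range. Below 9 lay F3, F8, Vwf, Thbd, Tfpi and Mcfd2, and 5 of these 6 were below 0. Of all genes 50.4% were above 0 between the filter and 7, and 66.9% between 7 and 9. Levels sort genes into ranges here but are not read as amounts of RNA of different genes, since each probe has its own brightness. Summed signals of marker groups are weighted towards the brightest probes.

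Other genes of the pathway, 37 in number, had 26 past the filter and a median difference of 0.05. At 1.2-fold 2 were higher, Fgl1 and Nqo1, and 2 were lower, while 0 passed 1.5-fold in either direction. The 7.69% in each direction lie near the 8.66% and 6.16% of all genes. The lower genes were Fgl2, a prothrombinase-like membrane protein, at 6.16 in the FHL2-/- labelled pool and 6.46 in the wild-type pool, and S100a10, which with annexin A2 binds plasminogen on cell surfaces, at 9.47 in the FHL2-/- labelled pool and 9.75 in the wild-type pool. A2m, a broad protease inhibitor, had the next largest difference, at 5.60 in the FHL2-/- labelled pool and 5.86 in the wild-type pool. With the arrays at a common median 4 of the 26 were at least 1.2-fold higher and 1 was at least 1.2-fold lower, against 12.7% and 4.32% of all genes.

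Transcription factors known to act on clotting genes in liver had a median difference of 0.12 over 14 genes, with 13 above 0, against 59.5% of all genes. With the trend on level removed the median was 0.07 and 9 of the 14 were above 0, against 50.6% of all genes. Onecut1, a homeobox factor, was at 8.94 in the FHL2-/- labelled pool and 7.67 in the wild-type pool, 2.41-fold higher. Cebpb, a factor of the acute phase response, was at 8.89 in the FHL2-/- labelled pool and 8.51 in the wild-type pool, and Stat3, which carries the interleukin-6 signal, was at 9.46 in the FHL2-/- labelled pool and 9.18 in the wild-type pool. Hnf4a, a main regulator of hepatocyte secretory genes, chosen after its value was seen, was at 10.83 in the FHL2-/- labelled pool and 10.68 in the wild-type pool. Whether these factors bear on the clotting genes' values was not tested.

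Platelet and megakaryocyte markers were measured because platelets carry factor XIII and other clotting proteins. Of 12 markers 8 were measured and 5 passed the filter, with a median of 0.04. Gp9 was at -0.53, Treml1 at -0.35 and Itga2b at 0.34, so members lay on both sides, and their summed linear signal was 0.971 of that in the wild-type pool. Stellate cell markers had a median of -0.04 over 12 genes, which turned to 0.0047 at a common median of the arrays, led by Col1a1 at -0.37, Lum at 0.34 and Ngfr at -0.19. Of bile duct markers 3 passed the filter, Krt19 at 0.27, Krt7 at 0.15 and Sox9 at -0.11, and of red blood cell markers 2 did, Alas2 at 0.29 and Slc4a1 at -0.13. Krt19 at 5.35 in the wild-type pool and Slc4a1 at 5.42 in the FHL2-/- labelled pool lay under the filter. Each passed it only through its higher pool, so these values may rest on background. Whether other cell types bear on the differences of the clotting genes was not tested.

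**Figure D4:**
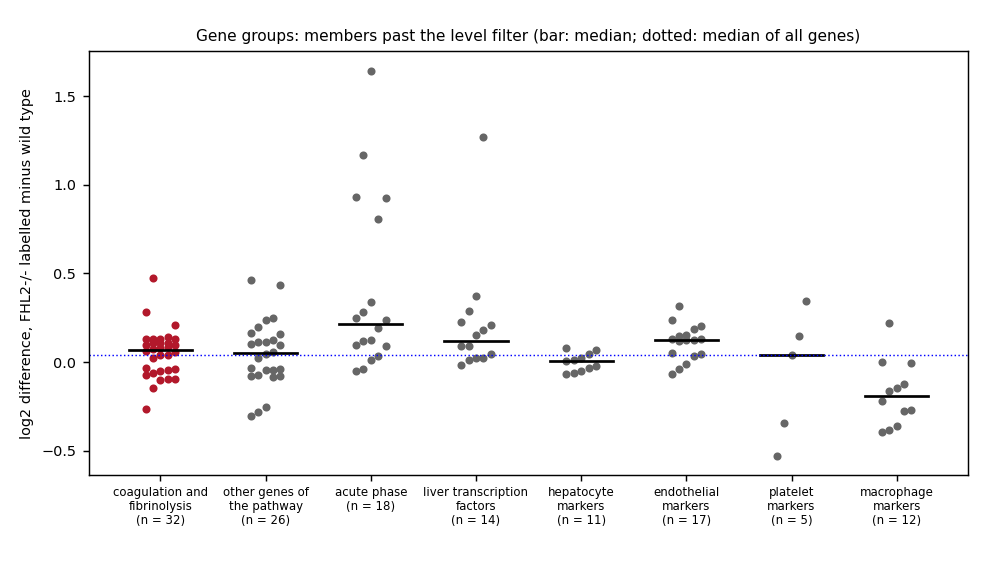
Log2 difference, FHL2-/- labelled pool minus wild-type pool, of every gene past the level filter in 8 gene groups, with a bar at each median and a dotted line at the median of all genes, 0.04. The 32 clotting genes lie between -0.27 and 0.48 around a median of 0.07, while acute phase genes reach 1.64 and macrophage markers have a median of -0.19.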

How the data were processed

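Liver RNA of 1 FHL2-/- labelled pool and 1 wild-type pool was measured on 1 array each. The deposited values are on a log2 scale. Per the submitters' processing notes, the programs were Affymetrix Expression Console 1.0, RMA and Partek 6.4, in an order not stated; settings and build were not given either. RMA compresses differences of dim genes, and without detection calls a dim value may be background.

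Of 28853 probes, 21789 carried 1 gene symbol (1621 several, 5443 none). The brightest such probe stood for each of 19938 genes. The level filter, the 40th percentile (5.44), left 11924 genes. All 36 probes of the clotting genes matched RefSeq symbols (GRCm38.p6). Summed signals add antilog values. Promoter motifs were searched on both strands, and a gene with several windows was counted once.

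Alternatives were a common median, a removed lowess trend (span 0.3), the mean over probes, no level filter, the 60th percentile as filter, the mean of genes and leaving out the most extreme gene. The counts past the SD between probes under other scalings were added after the data were seen. Steps were tested on simulated data (Python 3.11.15, pandas 2.3.3, statsmodels 0.14.6). All clotting genes are named, with Fhl2, the 5 other pathway genes and the 3 genes of each other list with the largest differences. Kng2, Hnf4a, Hp, Itih4 and Hpx were named outside this rule, after their values were seen. Genes, lists and alternatives were chosen with earlier results of these data known.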

Additional observations from a re-analysis of the deposited data

How the results depend on the processing

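The median difference of the clotting genes was 0.07 and ran from 0.04 with the trend on level removed to 0.11 with the arrays at a common median, and it was 0.05 as a mean and 0.065 without F3. The number above 0 ran from 20 to 23, with 23 of 35 where no level filter was set. The counts at 1.5-fold stayed at 0 in both directions under all 5 alternatives that can move them. At 1.2-fold 2 genes were higher, and this became 1 with the trend on level removed, which left F3, and 1 with the filter at the 60th percentile, which removed F3 and left Proz. At 1.2-fold 1 gene was lower, and this became 0 at a common median, since that shift adds 0.041 to every difference. The 5 genes past the SD between probes became 12 under the shift, chosen after seeing the data, and 7 with the trend removed. Under the shift 3 genes changed sign, Fgb, Plau and Serpinc1, and 0 did under the removed trend or the mean over probes. The shift raises the median of all genes to 0.08. No role group's median moved by more than the SD between probes, 0.143, but that of the fibrinogen chains turned from -0.03 to 0.0073 at a common median. The number of arrays, 1 in each group, leaves all these values without replicate error, and signals below the filter may be background. No paired analysis was possible because each group is 1 array.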
